A study of Rattus norvegicus with 43 samples.

Results

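Colonic mucosa of rats fed fish oil was compared with that of rats fed corn oil or olive oil, over 2 times after the carcinogen azoxymethane. The fish oil rats, chosen by the diet and time in their labels, numbered 9 of the 29 rats of the series. They were 5 rats killed 12 h and 4 rats killed 10 wk after injection. Against them stood 20 rats, with 5 corn oil and 5 olive oil rats at each time. All were male Sprague Dawley rats described as weanling, and every one had received azoxymethane at 15 mg/kg, so that no untreated rat and no rat on another fat source was available. The late rats had a second injection, and the treatment protocol counts 9 wk from it while their own labels read 10 wk. Age, number of injections and time on the diet differ between the times together, and no source used here states the length of feeding. Each rat is a separate animal, and a bulk sample cannot tell fewer cells of a type from less RNA per cell.

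Fish oil supplies long-chain n-3 fatty acids, corn oil mostly linoleic acid, an n-6 fatty acid, and olive oil mostly oleic acid, which is monounsaturated. Dietary fatty acids enter colon epithelial cells, are bound there by fatty acid binding proteins, and can act as ligands of the nuclear receptors PPAR alpha, delta and gamma, which drive genes of lipid transport and oxidation. They also become part of membranes, where they set the substrates for prostaglandins and leukotrienes and the load of lipid aldehydes. In rodents, azoxymethane methylates DNA in the colon and leads to tumours there, and fish oil has been studied as a protective fat in this model.

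RNA was hybridised to 43 1-colour CodeLink arrays, 15 of them from fish oil rats, and the repeat arrays of 10 rats were averaged to 1 value per rat. A level here is the log2 of normalized spot intensity. Values below the 10th percentile, 6.46, were set to it. This floor is called the lowest measurable value here, and it is a setting and not a limit of detection. Of the 8452 probes, 6381 were bright enough to test. Median signal per rat had a median of 406 in fish oil and 354 in other rats at 12 h, and of 439 and 414 at 10 wk. The files record spot and background ring areas. Cutoffs of 250 on the median spot area and 450 on the median ring area, chosen here from these data, divide the arrays into 3 classes. They are called scan classes here, although no label gives a scan date or batch, and they were spread unevenly. At 12 h all 5 fish oil rats but only 6 of the 10 other rats had a small ring array, and at 10 wk all 4 fish oil and 8 of the 10 other rats had a large ring array. Markers of the labelled tissue were high. The colonocyte genes Vil1, Cdhr5, Car2, Klf4 and Hsd11b2 and the goblet cell genes Tff3 and Zg16 had median levels of 12.59 to 14.79. Of the enteric neuron and glia markers, Sox10 and Nos1 lay at the lowest measurable value in all 29 rats, while the neuronal gene Prph and the glial gene S100b had median levels of 10.78 and 8.65. Rats 201, 234 and 236, all fed fish oil, stood lower than other rats on many probes described below. Rat 236 had the lowest agreement with other rats of its time at 10 wk (median correlation 0.953), while rats 201 and 234 gave 0.963 and 0.971, inside the range of the other rats. Arrays 2, 3 and 4 of rat 236 had median backgrounds of 83, 81 and 82, and those of corn oil rat 136 had 81, 83 and 81, where the median array had 60. Rat 234 had 82 and 77 missing spots on its arrays, against 18 to 33.5 in corn and olive oil rats at 10 wk. Rat 201 had 64, against 14 to 74.5 in those at 12 h.

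Fish oil was associated with few differences. Of the 6381 probes 30 passed the test (0.47%), 7 higher (0.11%) and 23 lower (0.36%) in fish oil rats, with adjusted p from limma's moderated test and time as a block. The sizes of these 30 ran from 0.26 to 1.04 on the log2 scale with a median of 0.44, and no tested probe had a larger difference than Fabp4. With no adjustment 824 probes had a p under 0.05, where 5% of all probes would be 319. The same 30 probes had the same direction against corn oil and against olive oil, and at 12 h and at 10 wk. They were chosen by the pooled difference of these same rats, so agreement in direction, here and in the alternatives below, follows largely from that choice. For no probe did all fish oil rats lie on one side of all other rats at both times (0%). Adding scan class as a block left 5 calls, including 4 of these 30, and the direction of all 30 held. The authors' deposited normalized values, in which constants replace many probes, gave 0 calls over the 5201 tested probes free of such constants. Fabp4, Aqp8, Efnb1, Arfip1 and Brd2 were not among those probes. Without rats 201, 234 and 236, which is an alternative chosen after seeing the values, 4 probes passed, all among the 30, and again all 30 kept their direction.

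**Figure D1:**
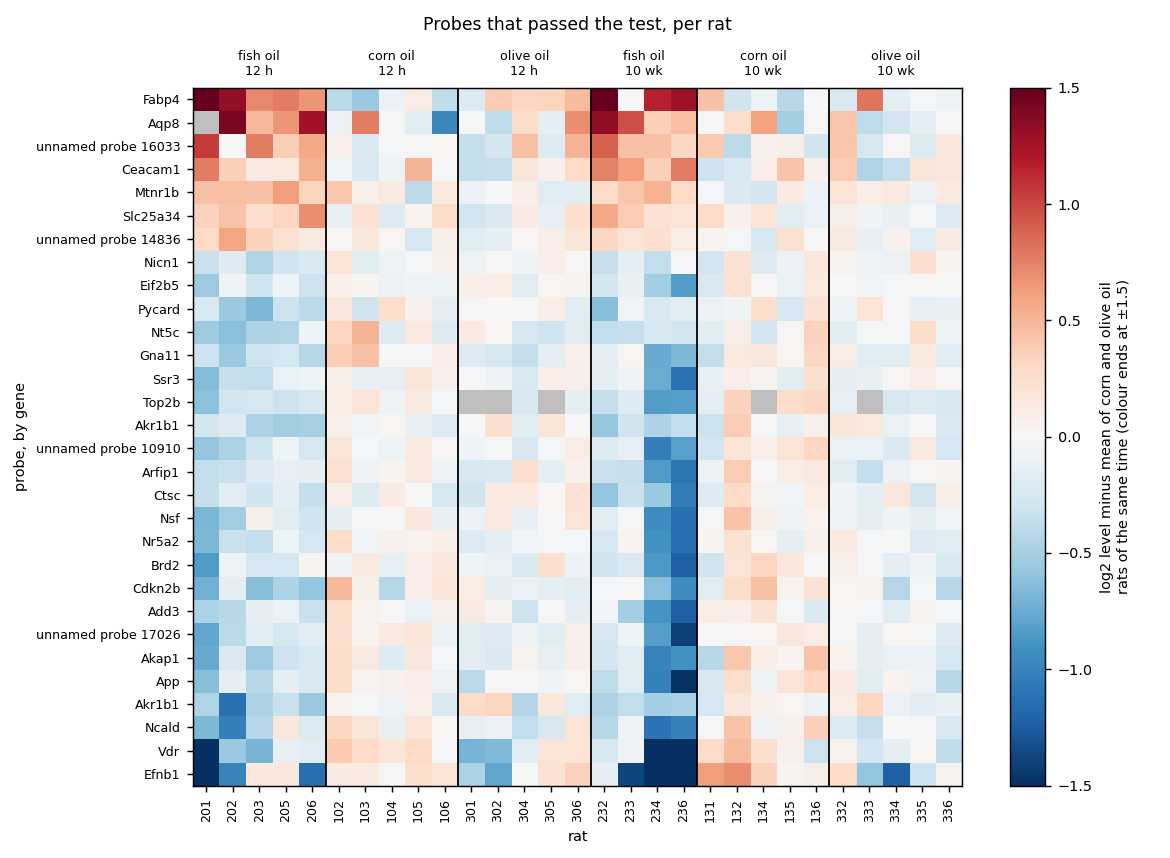
Level of each of the 30 probes that passed the test (rows) in each of the 29 rats (columns), as the log2 difference from the mean of the corn and olive oil rats of the same time. Red is higher, blue is lower and grey is missing, with the colour scale beside the map. The rows are ordered by the pooled difference, and rats 201, 234 and 236 hold the darkest blue of many rows.

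Among the genes that rose, the largest difference was that of Fabp4, which encodes a fatty acid carrier of adipocytes, macrophages and capillary endothelium. At 12 h its level was 8.78, 8.33, 7.73, 7.78 and 7.67 in the fish oil rats, against a lowest of 6.46, a median of 7.03 and a highest of 7.49 in the 10 corn and olive oil rats. At 10 wk it was 8.83, 7.15, 8.32 and 8.43 in the fish oil rats, against 6.74, 7.08 and 7.96 as the lowest, median and highest of the others. All fish oil rats thus lay above all others at 12 h, while at 10 wk rat 233 lay among them. One of the corn oil rats, 103, lay at the lowest measurable value. Over all rats the median level of Fabp4 was 7.16, at percentile 25.8 of all probes. A tested probe had to exceed the 30th percentile in 4 or more rats. Fabp4 thus entered the test through its higher rats, most of them fed fish oil, and it passed also with no filter on dim probes. The pooled difference was 1.04 (SE 0.16, adjusted p = 0.00236), or 2.06-fold. It was 1.05 in the 12 h rats alone and 1.03 in the 10 wk rats alone. Fabp4 passed with each single rat left out, and stood at 1.09 (adjusted p = 0.00171) once scan class was a block. Without rats 201, 234 and 236 it was 0.86 (adjusted p = 0.0519).

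Aqp8, the water channel of the colon's surface epithelium, rose by 0.87 (SE 0.18, adjusted p = 0.0226), or 1.82-fold. Its levels at 12 h were 13.15, 12.22, 12.40 and 12.99 in 4 fish oil rats, with the spot of rat 201 missing, against 10.77, 11.69 and 12.51 as the lowest, median and highest of the other rats. At 10 wk the fish oil rats had 12.92, 12.56, 11.96 and 12.05, against 11.09, 11.59 and 12.19. The groups overlapped at both times, but all 8 measured fish oil rats lay above the mean of the other rats of their time. Aqp8 passed with each single rat left out, under the scan class block (0.85, adjusted p = 0.0481) and without rats 201, 234 and 236 (1.03, adjusted p = 0.0407). It missed the threshold without the 6 rats that had arrays of large spots (adjusted p = 0.0862).

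Ceacam1, which encodes an adhesion glycoprotein of epithelial cells, rose by 0.50 (SE 0.11, adjusted p = 0.0318). Its mean level was 11.82 ± 0.27 in fish oil rats and 11.43 ± 0.28 in the others at 12 h (SD, n = 5 and 10), and 11.65 ± 0.20 and 11.02 ± 0.31 at 10 wk (n = 4 and 10). All 9 fish oil rats lay above the mean of the other rats of their time. The call was lost when any 1 of rats 132, 201, 206, 232, 234 and 236 was left out and under the scan class block (0.46, adjusted p = 0.0611). Mtnr1b encodes a melatonin receptor and rose by 0.42 (SE 0.07, adjusted p = 0.00434). Its level was 7.95, 7.97, 7.96, 8.14 and 7.85 in fish oil rats at 12 h, against 7.12, 7.54 and 7.93 as the lowest, median and highest of the others, and 8.001, 8.121, 8.227 and 7.987 at 10 wk, against 7.41, 7.74 and 7.91. At 10 wk every fish oil rat lay above every other rat. Mtnr1b passed with each single rat left out, but not under the scan class block (0.37, adjusted p = 0.178). Without rats 201, 234 and 236 it stood at 0.425 (adjusted p = 0.0519). It also missed the threshold without the rats that had arrays of large spots and with the deposited normalized values. The same held with all arrays and the rat as a random block. Slc25a34, a member of the mitochondrial carrier family, rose by 0.38 (SE 0.07, adjusted p = 0.018). It had means of 8.82 ± 0.18 and 8.41 ± 0.21 in fish oil and other rats at 12 h, and of 8.57 ± 0.17 and 8.23 ± 0.16 at 10 wk. Slc25a34 passed with each single rat left out, under the scan class block (0.36, adjusted p = 0.0481) and without rats 201, 234 and 236 (0.44, adjusted p = 0.0407). Like Aqp8, it missed the threshold without the rats that had arrays of large spots, and it missed it with the deposited normalized values. The other probes that rose have no gene in the annotation, probe 16033 at 0.54 and probe 14836 at 0.27.

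**Figure D2:**
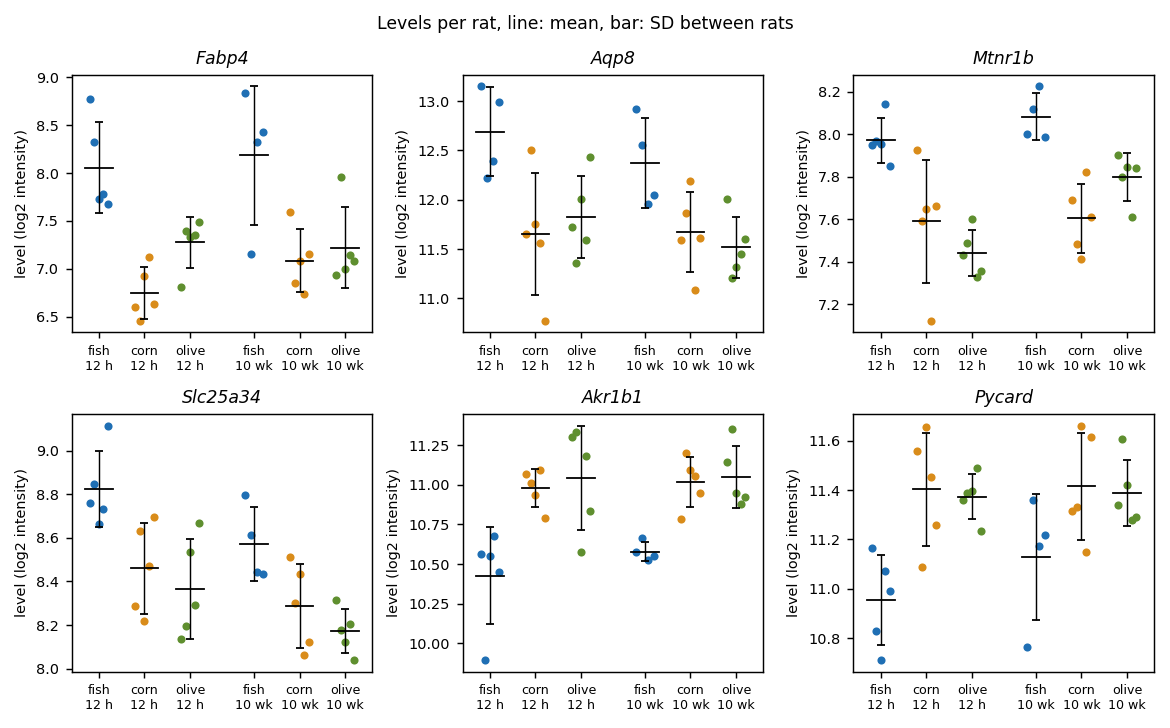
Level (log2 intensity, vertical axis) of 4 genes that rose and of Akr1b1 and Pycard, which fell, in each rat of the 6 groups (points), with the group mean (line) and SD between rats (bar). All fish oil rats lie above all others for Fabp4 at 12 h and for Mtnr1b at 10 wk, and below all others for Akr1b1 at 10 wk.

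The promoters of 3 of these risers are in RefSeq's table for build GRCr8 and are printed because all 3 genes passed as higher in fish oil rats. Whether the genes vary together from rat to rat was not tested. Each runs from 250 bases before the gene's start to 50 bases after it, 5′ to 3′. Aqp8 lies at chr1:187424193-187424492 on the forward strand, Ceacam1 at chr1:90187743-90188042 on the reverse strand and Slc25a34 at chr5:159219843-159220142 on the reverse strand. The largest fall, Efnb1, at chrX:68297279-68297578 on the forward strand, is shown beside them. Capitals mark the motifs searched on both strands.
Aqp8 promoter: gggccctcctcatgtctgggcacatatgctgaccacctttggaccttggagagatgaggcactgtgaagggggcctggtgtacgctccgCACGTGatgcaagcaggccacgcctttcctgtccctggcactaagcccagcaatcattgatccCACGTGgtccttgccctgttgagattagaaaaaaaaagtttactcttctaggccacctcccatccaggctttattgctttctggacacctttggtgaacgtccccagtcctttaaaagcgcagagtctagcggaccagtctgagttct
Ceacam1 promoter: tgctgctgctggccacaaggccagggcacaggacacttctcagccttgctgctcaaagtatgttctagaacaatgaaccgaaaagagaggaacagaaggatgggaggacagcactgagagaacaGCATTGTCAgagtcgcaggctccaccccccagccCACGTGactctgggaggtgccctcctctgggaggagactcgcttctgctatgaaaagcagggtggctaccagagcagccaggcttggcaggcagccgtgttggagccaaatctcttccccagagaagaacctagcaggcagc
Slc25a34 promoter: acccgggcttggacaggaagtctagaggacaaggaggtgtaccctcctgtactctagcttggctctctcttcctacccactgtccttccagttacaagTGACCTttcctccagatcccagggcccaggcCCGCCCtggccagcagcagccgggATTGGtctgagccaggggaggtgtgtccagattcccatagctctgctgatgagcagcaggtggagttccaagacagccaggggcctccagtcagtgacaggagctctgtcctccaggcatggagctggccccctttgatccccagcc
Efnb1 promoter: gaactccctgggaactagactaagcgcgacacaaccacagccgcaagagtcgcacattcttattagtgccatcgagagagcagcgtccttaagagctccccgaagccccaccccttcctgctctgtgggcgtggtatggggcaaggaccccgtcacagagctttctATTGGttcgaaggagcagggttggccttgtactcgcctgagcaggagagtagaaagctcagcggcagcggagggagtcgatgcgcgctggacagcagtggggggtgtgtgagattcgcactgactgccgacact
One motif was the E-box, spelled CACGTG, which is bound by basic helix-loop-helix proteins. Another was the nuclear receptor half-site, spelled AGGTCA, together with its direct repeat AGGTCANAGGTCA, which contains that half-site. The antioxidant response core was searched as TGACNNNGC, which can overlap a half-site. Among general promoter motifs the search took the TATA box as TATAAA. It also took the GC box, whose letters on the forward strand are GGGCGG. The CCAAT box was searched by the letters in its name. Aqp8 held CACGTG at 161 and 98 bases before the start and Ceacam1 at 92 bases, a motif that 6.4% of 33469 promoters of this length held. Slc25a34 held 1 half-site, which 16.2% of promoters did. Of the 16 genes that passed on their brightest probe 13 had a promoter in the table, of which 3 held the half-site, 2 the E-box, 7 the GC box (33.1% of all promoters), 6 CCAAT (37.5%), 2 the antioxidant core (12.1%), 1 TATAAA (14.2%) and 0 the direct repeat (0.1%). A match is a run of letters and not a site of binding. Fabp4, Mtnr1b and Akr1b1 have no entry.

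Of the genes that fell, Akr1b1 had the smallest adjusted p. It encodes aldose reductase, which turns glucose to sorbitol and also reduces lipid aldehydes. At 12 h its level was 10.56, 9.89, 10.55, 10.68 and 10.45 in the fish oil rats, against 10.58, 11.04 and 11.33 as the lowest, median and highest of the other rats. At 10 wk it was 10.57, 10.67, 10.52 and 10.55 in the fish oil rats, against 10.784, 11.002 and 11.35. All 4 late fish oil rats lay below all late others, and at 12 h rat 205 alone lay above the lowest of the others, olive oil rat 304. Akr1b1 fell by 0.53 on the log2 scale (SE 0.09, adjusted p = 0.00377), and its other probe fell by 0.41 (SE 0.07, adjusted p = 0.00381). Both probes passed with each single rat left out and without rats 201, 234 and 236 (each adjusted p = 0.0407). Both missed the threshold with scan class as a block, at -0.45 (adjusted p = 0.237) and -0.38 (adjusted p = 0.0611).

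Pycard, the adaptor protein of inflammasomes, fell by 0.36 (SE 0.08, adjusted p = 0.0231). Its mean was 10.95 ± 0.18 in fish oil and 11.39 ± 0.17 in other rats at 12 h, and 11.13 ± 0.26 and 11.40 ± 0.17 at 10 wk. Nt5c, a cytosolic nucleotidase that acts on deoxyribonucleotides, fell by 0.37 (SE 0.09, adjusted p = 0.0411), with means of 9.53 ± 0.22 and 9.96 ± 0.27 at 12 h and of 9.56 ± 0.06 and 9.87 ± 0.20 at 10 wk in fish oil and other rats. Nicn1, a subunit of a tubulin polyglutamylase complex, fell by 0.26 (SE 0.06, adjusted p = 0.0441), and at 12 h all 5 fish oil rats, at 7.43 to 7.70, lay below all 10 others, whose lowest was 7.71. For each of these 3 genes all 9 fish oil rats lay below the mean of the other rats of their time. Their differences did not shrink without rats 201, 234 and 236, at -0.43, -0.39 and -0.28, though with 6 fish oil rats none of the 3 passed (adjusted p = 0.0519, 0.351 and 0.311). Under the scan class block they stood at -0.26, -0.35 and -0.24 (adjusted p = 0.43, 0.251 and 0.251). With 1 rat left out at a time, Pycard passed in 27, Nt5c in 12 and Nicn1 in 9 of the 29 fits.

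A larger set of the genes that fell was lowest in the same rats. Over the 23 probes that fell, rat 201 was the lowest fish oil rat at 12 h on 16, and at 10 wk rat 236 was the lowest on 11 and rat 234 on 9. Efnb1, which encodes ephrin B1, a membrane ligand of Eph receptors that sort cells along the crypt, fell by 0.99 (SE 0.22, adjusted p = 0.0297). Its level was 7.16, 8.12, 9.28, 9.28 and 7.99 in fish oil rats at 12 h, against 8.34, 9.25 and 9.47 as the lowest, median and highest of the others, and 8.52, 7.29, 6.86 and 6.97 at 10 wk, against 7.45, 8.73 and 9.36. Rats 203 and 205 were thus as high as the corn and olive oil rats, and 2 fish oil rats had an array at the lowest measurable value. Without rats 201, 234 and 236 the difference was -0.57 (adjusted p = 0.64).

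App, the amyloid precursor protein gene, fell by 0.52 (SE 0.11, adjusted p = 0.0285). Its level was 9.38, 9.89, 9.61, 9.88 and 9.79 in fish oil rats at 12 h, against 9.62, 10.05 and 10.30 in the others, and 9.43, 9.63, 8.80 and 8.33 at 10 wk, against 9.40, 9.82 and 10.14. All 9 fish oil rats lay below the mean of the others, with rats 234 and 236 far below the rest. Add3, a subunit of the membrane skeleton protein adducin, fell by 0.46 (adjusted p = 0.0226), Brd2, a bromodomain reader of acetylated histones, by 0.45 (adjusted p = 0.042), and Nr5a2, a nuclear receptor of the intestinal crypt, by 0.44 (adjusted p = 0.0231). Arfip1, which binds Arf GTPases at the Golgi, fell by 0.43 (adjusted p = 0.0226). Eif2b5, the catalytic subunit of the exchange factor of translation initiation factor eIF2, fell by 0.34 (adjusted p = 0.0226), whereas its dimmer probe stood at 0.01 (adjusted p = 0.973). In all 9 fish oil rats Add3, Arfip1 and Eif2b5 lay below the mean of the others, and in 8 of 9 Brd2 and Nr5a2 did. Without rats 201, 234 and 236 the differences were -0.25 for App, -0.26 for Add3, -0.18 for Brd2, -0.20 for Nr5a2, -0.25 for Arfip1 and -0.19 for Eif2b5, none past the threshold (adjusted p from 0.416 to 0.65). Under the scan class block they lay between -0.32 and -0.51 and none passed either (adjusted p from 0.106 to 0.251). Leaving out rat 201 or rat 234 ended the call of each of these 6 genes and of Efnb1, and Brd2 passed in 10 of the 29 fits with 1 rat left out.

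**Figure D3:**
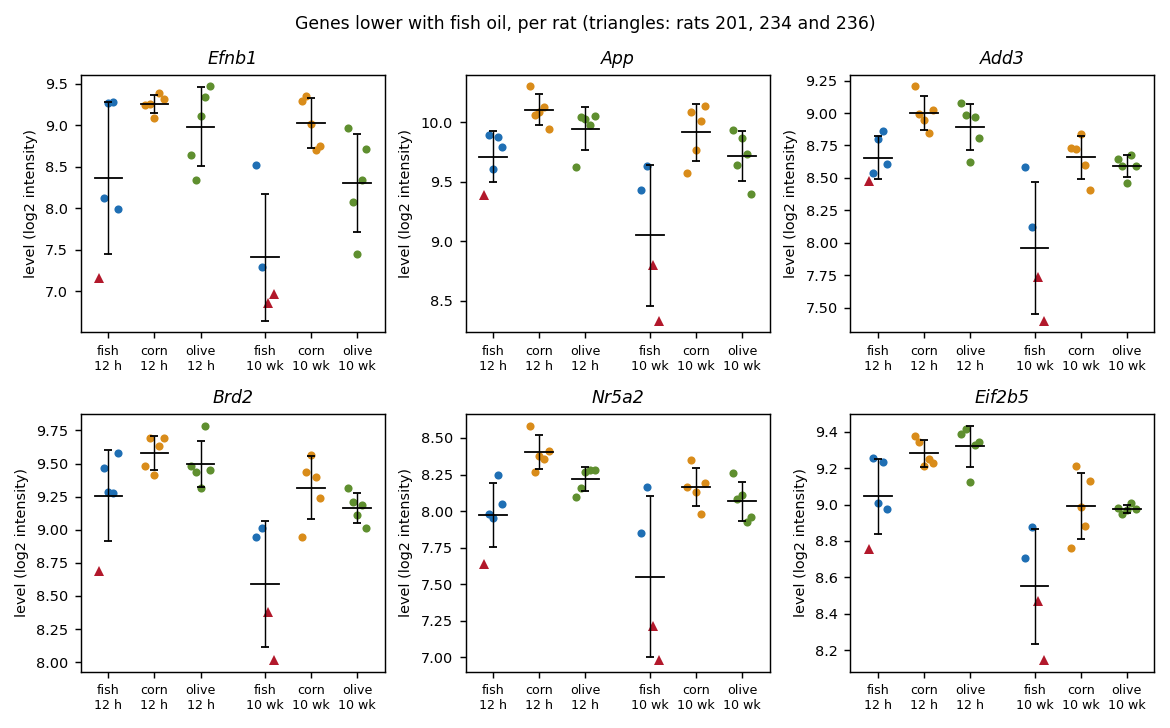
Level (log2 intensity, vertical axis) of 6 genes that fell with fish oil in each rat of the 6 groups, with the group mean (line) and SD between rats (bar). Red triangles are the fish oil rats 201, 234 and 236. For App at 10 wk rats 234 and 236 lie at 8.80 and 8.33, and the other fish oil rats at 9.43 and 9.63.

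A further 9 genes fell on a probe that was not their brightest, and are named here because their values were seen. Cathepsin C (Ctsc) and the G protein subunit gene Gna11 had probes that went the same way, at -0.43 and -0.38 (adjusted p = 0.018 and 0.0411) on the dimmer probe and -0.38 and -0.32 (adjusted p = 0.0741 and 0.0715) on the brightest. For the other 7 the brightest probe gave a difference less than 0.5 times as large, or one of opposite sign, and it did not pass. Vdr, the vitamin D receptor gene, stood at -0.84 (adjusted p = 0.0411) on one probe and at -0.07 (adjusted p = 0.769) on a slightly brighter one, with mean levels of 9.28 and 9.50. Cdkn2b, an inhibitor of cyclin-dependent kinases, stood at -0.46 (adjusted p = 0.0411) and at -0.04 (adjusted p = 0.903). The mitochondrial kinase anchor gene Akap1 and the neuronal calcium sensor gene Ncald stood at -0.50 and -0.53 on the dimmer probe and at -0.01 and -0.18 on the brightest. Ssr3, a subunit of the translocon-associated complex, and the membrane fusion gene Nsf had opposite signs on their probes, at -0.40 and -0.43 on the dimmer and at 0.13 and 0.08 on the brightest. Top2b, a DNA topoisomerase gene, stood at -0.41 with the spot missing in 5 rats and at -0.18 on the brightest probe. In all, 25 genes had a probe that passed. Of these 11 had more than 1 tested probe, and Akr1b1 was the only one of the 11 with every probe past the threshold.

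A group of 8 genes stood just outside the threshold, with adjusted p from 0.0608 to 0.0652. Camk2b, a calcium-dependent kinase subunit, stood at 0.29. The others stood below 0, at -0.36 for Canx, a chaperone of the endoplasmic reticulum, and -0.40 for Pkm, a pyruvate kinase gene. Hfe, a regulator of iron uptake, stood at -0.29 and Socs2, a feedback inhibitor of cytokine signalling, at -0.40. Bsdc1 stood at -0.49, the diacylglycerol kinase gene Dgkz at -0.45 and the heparan sulfate sulfotransferase gene Hs3st1 at -0.32.

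Set against each oil alone, 48 probes passed against corn oil (0.752%), 9 higher and 39 lower, and 4 against olive oil (0.0627%), 2 higher and 2 lower. Both counts depended on the processing. Against corn oil 2 passed without rat 234, 2 with scan class in the model and 106 with array weights, and against olive oil 0 passed with scan class in the model or median scaling. The fish oil rats are the same in both comparisons. At an unadjusted p under 0.05 there were 883 and 515. The 4 probes past the threshold against olive oil were both probes of Akr1b1 (-0.55 and -0.43, each adjusted p = 0.0195), Slc25a34 (0.43, adjusted p = 0.0331) and Mtnr1b (0.41, adjusted p = 0.0496), and all 4 but Slc25a34 passed against corn oil as well. Fabp4 stood at 1.21 against corn oil (adjusted p = 0.00186) and at 0.87 against olive oil (adjusted p = 0.0572). Efnb1 stood at -1.24 (adjusted p = 0.018) and -0.74, App at -0.61 (adjusted p = 0.023) and -0.43, and Aqp8 at 0.87 (adjusted p = 0.0369) and 0.86. Between corn oil and olive oil themselves limma called 0 probes, with 333 at an unadjusted p under 0.05, and the median absolute difference over all probes was 0.07 there and 0.08 between fish oil and the others. Among the 30 probes, 5 had an unadjusted p under 0.05 between corn oil and olive oil.

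The 12 h rats and the 10 wk rats share no animal, so each time gives its own value. Fitted alone neither time had a probe past the threshold in limma, with 441 and 623 at an unadjusted p under 0.05. Of the 441 at 12 h, 325 (73.7%) had the same sign at 10 wk, against 60.3% of all 6381 probes. Both times gave an unadjusted p under 0.05 in the same direction for 84 probes, 19 higher and 65 lower, and in opposite directions for 6. Across probes, which are not independent replicates, the differences at the 2 times had a Pearson r of 0.29 and a Spearman rho of 0.30. Taking only small ring arrays at 12 h (5 fish oil and 6 other rats) and only large ring arrays at 10 wk (4 and 8), r was 0.23 and 55.8% of 6379 probes had the same sign. All 30 probes kept their sign in both of these subsets, whose rats also took part in choosing them. There Fabp4 stood at 0.94 and 1.16, Aqp8 at 0.98 and 0.79, and Akr1b1 at -0.56 and -0.43.

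The test of a change in the fish oil difference between the times called 0 probes in limma, with 224 at an unadjusted p under 0.05 and a smallest adjusted p of 0.999. Among the 30 probes Ctsc, Add3 and Arfip1 had an unadjusted p under 0.05 for that change, the smallest being 0.0153 for Arfip1, at -0.23 at 12 h and -0.66 at 10 wk. The genes of smallest p for the change were Shmt2, the mitochondrial serine hydroxymethyltransferase gene, at 0.25 at 12 h and -0.18 at 10 wk, and Gfpt2, an enzyme gene of hexosamine synthesis, at 0.37 and -0.27. Fgf12, of the fibroblast growth factor family, stood at 0.62 and -0.87, and Mdp1, a phosphatase gene, at -0.37 and 0.12. None of these 4 passed. Of the 23 probes that fell with fish oil 12 were also lower at 10 wk than at 12 h over all diets and 0 were higher, where of all 6381 tested probes 1129 were lower and 1228 higher.

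**Figure D4:**
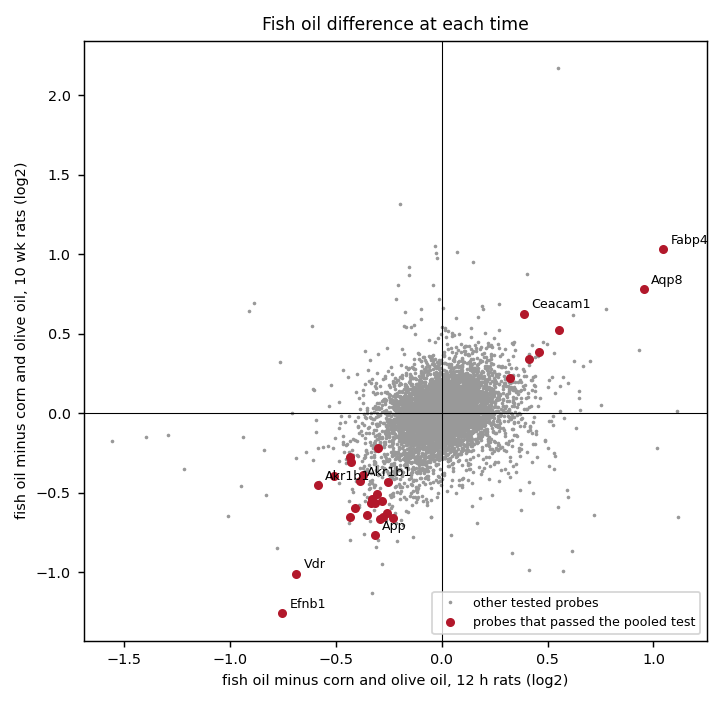
Fish oil minus corn and olive oil on the log2 scale in the 12 h rats (horizontal) and in the 10 wk rats (vertical), 1 point for each of 6381 tested probes, with the 30 probes that passed the pooled test in red. All 30, which were chosen by the pooled test on these same rats, lie in the lower left or upper right, with Fabp4 at 1.05 and 1.03.

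No gene of the lipid lists passed, but Fabp4, a fatty acid carrier that did pass, was placed in the adipocyte list and not in these. Of 22 tested PPAR targets and fatty acid oxidation genes 0 passed, 16 stood above 0, and the median was 0.06, against -0.003 over 4431 genes. Fabp1, the liver type fatty acid carrier abundant in this epithelium, stood at 0.47 (SE 0.18, adjusted p = 0.246), with 14.56, 13.83, 13.31, 14.53 and 13.59 in fish oil rats at 12 h and 14.02, 14.10, 13.91 and 14.27 at 10 wk. Cpt1b, a carnitine palmitoyltransferase gene, stood at 0.25 (adjusted p = 0.271), with 0.03 at 12 h and 0.52 at 10 wk. Its 12 h value is limited by the lowest measurable value, which was both the lowest and the median level of the olive oil rats then. Over all rats, 1 fish oil and 4 other rats had an array there. Ucp2, a mitochondrial carrier gene, stood at -0.25 (adjusted p = 0.337) and its dimmer probe at 0.03. Ppard, the gene of PPAR delta, stood at -0.29 (adjusted p = 0.34).

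None of 13 lipogenesis and desaturation genes passed, with a median of 0.05. Acaca, acetyl-CoA carboxylase, stood at 0.23 and the acyl-CoA synthetase genes Acsl3 and Acsl5 at 0.21 and -0.29 (adjusted p from 0.224 to 0.337). Of 12 cholesterol synthesis and uptake genes 0 passed, with a range of -0.12 to 0.14, and Nsdhl, Mvk and Pmvk, enzyme genes of that pathway, stood at -0.12, -0.09 and -0.11. Of 9 sterol and bile acid transport genes 0 passed, with a median of -0.10. The oxysterol receptor genes Nr1h2 and Nr1h3 stood at -0.16 and -0.10 and the apolipoprotein gene Apoa1 at 0.21 (adjusted p from 0.289 to 0.655). Of 14 eicosanoid genes 0 passed, with a median of 0.06. There the prostaglandin E receptor gene Ptger4 stood at -0.15, Alox5ap, the activator of leukotriene synthesis, at -0.20 on one probe and 0.02 on the other, and the prostaglandin D synthase gene Ptgds at 0.18.

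The unfolded protein response list holds chaperone genes of the endoplasmic reticulum and other genes of that response. It stood below 0 in the pooled comparison without a call. All 16 tested members stood below 0 and 6 had an unadjusted p under 0.05, while 0 passed, and the median was -0.12, against -0.003 over all genes. Of all 4431 tested genes 2177 stood above 0, and 8.06% stood lower at an unadjusted p under 0.05. The 6 were Pdia3, Herpud1, Canx, Dnajc3, Pdia4 and Chac1. Chac1, which encodes an enzyme that degrades glutathione, stood at -0.83 (SE 0.21, adjusted p = 0.0687). It had 7.01, 6.85, 6.82 and 6.55 in fish oil rats at 12 h, with rat 201 missing, against 6.69, 7.86 and 8.61 as the lowest, median and highest of the others. At 10 wk it had 7.13, 7.59, 6.67 and 7.24, against 6.92, 7.87 and 8.75. All 8 measured fish oil rats lay below the median of the other rats of their time, with rats 206 and 234 below every other rat of theirs. Pdia3, a protein disulfide isomerase gene, stood at -0.29 (adjusted p = 0.0806) on its brightest probe and at 0.03 on another, and it passed against corn oil (-0.40, adjusted p = 0.0294). Against olive oil 14 of the 16 stood below 0, 3 of them at an unadjusted p under 0.05, and 0 passed. In the 12 h rats alone 14 of the 16 stood below 0 and in the 10 wk rats 15. Without rats 201, 234 and 236 it was 13 of 16 with a median of -0.13, and under the scan class block 15 of 16 with a median of -0.12.

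Fabp4 is also an adipocyte marker, so the adipocyte list was read beside it. Of its 11 genes 5 were on the array and 4 were tested. Adipoq, the adipocyte hormone adiponectin, stood at 0.62 (SE 0.19, adjusted p = 0.128). Its level was 7.30, 8.85, 7.84, 8.13 and 7.07 in fish oil rats at 12 h, against 6.89, 7.21 and 7.69 as the lowest, median and highest of the others, and 8.35, 6.55, 8.06 and 7.77 at 10 wk, against 6.51, 6.91 and 7.94. Rat 233, the lowest late fish oil rat for Fabp4, was also the lowest for Adipoq. The order differed at 12 h. There rat 201 was the highest fish oil rat for Fabp4 and had 7.30 for Adipoq, while rat 202 was the highest for Adipoq. With a median of 7.20 over all rats, at percentile 24.8 of all probes, Adipoq likewise entered the test through its higher rats. Pck1 and Pparg, which colon epithelium expresses too, stood at -0.34 (adjusted p = 0.0741) and -0.18, and Lipe, the hormone-sensitive lipase gene, lay at the lowest measurable value in 17 of 29 rats. The summed level of the 5 genes, of which Pck1 and Pparg make up nearly all, ran from 13.51 to 13.94 in fish oil and 13.74 to 14.28 in other rats at 12 h, and from 13.59 to 13.97 and 13.73 to 14.19 at 10 wk. The part of adipocytes in the Fabp4 difference was not tested. The macrophage and mast cell list, other cells in which Fabp4 is known, had 0 of 6 past the threshold and a median of -0.16, with 1 of 6 above 0. The endothelium list had 0 of 4 and a median of -0.08.

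Aqp8 and Ceacam1 are colonocyte markers, and the other 6 of the 8 tested genes of that list did not pass. They stood between -0.12 (Car2) and 0.22 (Fabp2), and Vil1 and Hsd11b2 at -0.01 and -0.02. The list's summed level had a median of 16.24 in fish oil and 16.23 in other rats at 12 h, and of 16.07 and 15.96 at 10 wk. Among 15 tested genes of epithelial ion and nutrient transport Aqp8 was the only call, and the median was -0.07. Of the other aquaporins, Aqp4 stood at 0.34 (adjusted p = 0.236) and Aqp3 at -0.23 (adjusted p = 0.425). Slc9a3, a sodium-hydrogen exchanger gene, stood at 0.21 and Trpv6, the apical calcium channel gene, at -0.20. The remaining cell type lists had 0 calls each, with medians of -0.10 for goblet cells, -0.05 for enteroendocrine cells, -0.06 for smooth muscle, -0.09 for fibroblasts and matrix, -0.16 for B and plasma cells, -0.07 for T and NK cells and 0.04 for enteric neurons and glia.

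**Figure D5:**
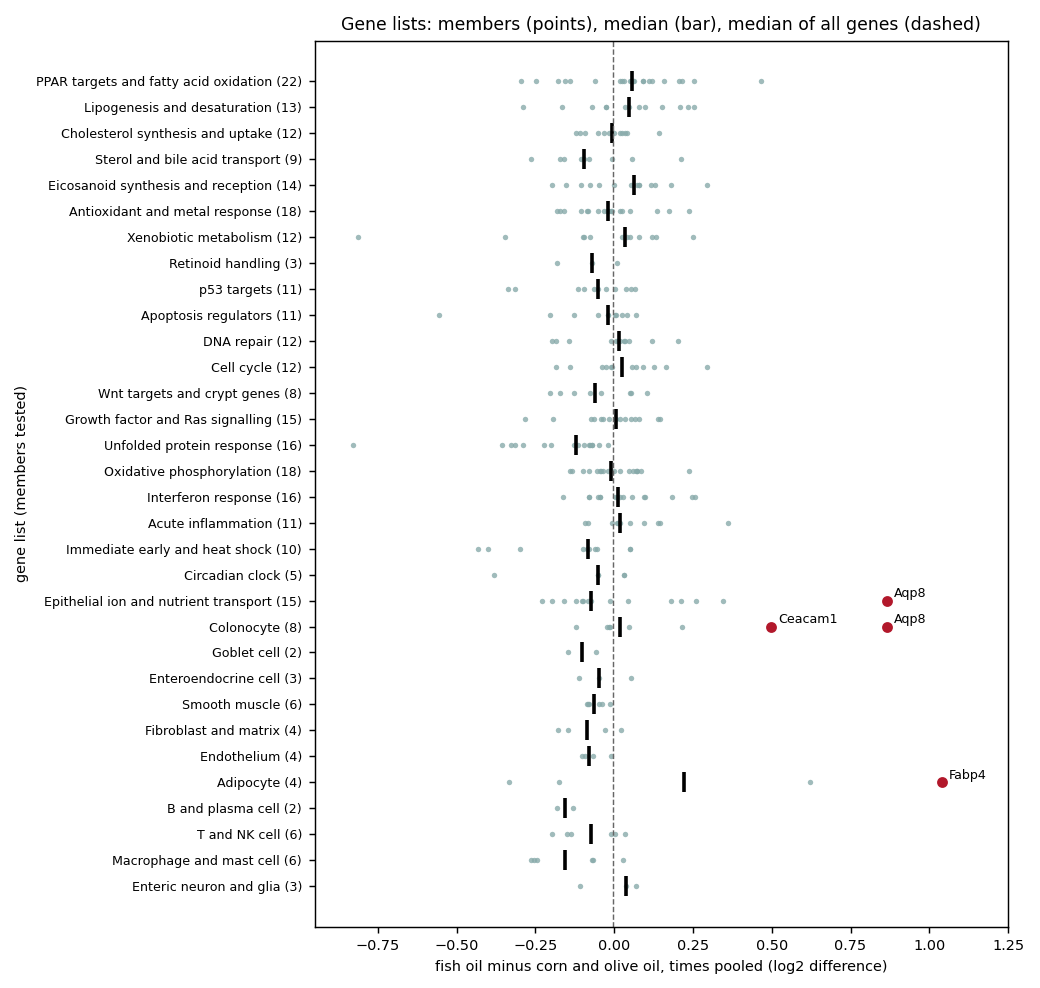
Fish oil minus corn and olive oil on the log2 scale, times pooled (horizontal), for the tested members (points) of each gene list (rows, number tested in brackets), with each list's median (bar) and the median of all genes (dashed line). Red points passed the test: Aqp8, Ceacam1 and Fabp4. All 16 unfolded protein response genes lie left of 0.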

How the data were processed

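Expression in colonic mucosa of 29 rats was measured on 43 1-colour arrays of 8452 probes. The files hold, per the file headers, spot intensity and local background for each probe, with a code for a missing spot (9 to 119 per array). Which software read the spots is not stated in the sources used here. The authors' background-subtracted and normalized intensity columns carry 1 constant per diet on 1559 fish oil, 1966 corn oil and 1227 olive oil probes and served only as an alternative. Median signal above background was 163.4 to 684.7 per array, and the number of rats, 4 or 5 per group, limits the precision.

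Background was corrected by normexp (offset 50), arrays were quantile normalized, values below the 10th percentile (log2 6.46) were set to it, and repeat arrays of a rat were averaged. Tested were the 6381 probes (75.5%) that exceeded the 30th percentile in 4 or more rats. limma 3.58.1 (R 4.3.3) fitted diet and time with 25 residual degrees of freedom, with fish oil minus the mean of corn and olive oil as the contrast, and p-values were adjusted by Benjamini-Hochberg over all tested probes (threshold 0.05). A fit of 6 group means tested the change between times. Differences carry standard errors of the fit and levels the standard deviation between rats. The fit was tested on simulated data. In the platform annotation 6252 probes have 1 symbol, 75 have several and 2125 have none, and 4431 named genes were tested. Current RefSeq names changed 0 symbols.

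The brightest probe stands for a gene. Named are, of the genes past the threshold, up to 12 that rose most and 12 that fell most, the genes of next smallest p up to 24, list members past it, the 3 members of smallest p of each lipid list, and the 4 genes of smallest p for the change between times. The members and the 32 gene lists (733 genes, 391 on the array, 305 tested) were chosen with earlier results of these data known. Lists are described by counts and medians.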

Additional observations from a re-analysis of the deposited data

Results flagged for a closer look

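Over 258 sets of 1 named gene in 1 group of rats, 23 had a rat far from the others of its group by Dixon's criterion, which chance alone meets in about 5% of sets. Among genes past the threshold, Fabp4 was low in olive oil rat 301 at 12 h (6.812, nearest rat 7.335) and high in olive oil rat 333 at 10 wk (7.961, nearest 7.14). Ceacam1 was high in corn oil rat 105 at 12 h (11.943) and App low in olive oil rat 301 at 12 h (9.623). No fish oil rat stood apart in this way for a gene past the threshold.

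In fish oil rat 236 at 10 wk the cholesterol synthesis genes Mvk and Pmvk were high (10.532 and 11.736), as was Fgf12 (9.821). The other late values set apart were Mvk in olive oil rat 332 (9.96), Fgf12 and Pkm in corn oil rat 131 (8.87 and 12.779), Acsl3 in corn oil rat 135 (12.28), and Hfe, Cpt1b and Ptgds in olive oil rat 335 (10.812, 6.886 and 7.349). At 12 h they were Pkm and Nr1h3 in corn oil rat 104 (12.986 and 8.706), Ucp2 in corn oil rat 106 (10.511), Pmvk in olive oil rat 301 (11.464) and Acsl3 in olive oil rat 302 (12.081). Olive oil rat 304 was low for Canx (11.148) and Hfe (10.344), rat 305 high for Nr1h2 (10.783) and rat 306 low for Acsl5 (8.198).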

How the results depend on the processing

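None of the 16 genes that passed on their brightest probe changed sign under any alternative run for it. Of the 43 named genes 8 did, none of them past the threshold: Nsdhl, Mvk, Pmvk, Alox5ap, Shmt2, Gfpt2, Fgf12 and Mdp1. The 9 genes that passed on a dimmer probe alone were not part of this count. With scan class as a block Fgf12 stood at 0.02, against -0.07 as the main value. The median of 21 of the 32 gene lists changed sign under at least 1 alternative. Among them, with scan class as a block, were smooth muscle (0.01, main -0.06) and enteroendocrine cells (0.01, main -0.05). With the stricter filter on dim probes the adipocyte median was another (-0.26, main 0.22). That filter left Fabp4 and Adipoq untested, so that this median rests on Pck1 and Pparg. Against corn and olive oil the main count of 30 became 15 with median scaling, 75 with the first array of each rat, 14 with all arrays and the rat as a random block, 17 with array weights, 5 with scan class as a block and 0 with the deposited normalized values. Alternatives chosen after seeing the data gave 0 within small ring arrays at 12 h alone, 0 within large ring arrays at 10 wk alone, 6 without the 6 rats with large spots arrays, and 4 without rats 201, 234 and 236. Against corn oil the main count of 48 became 31 with no filter on dim probes, 30 with a filter at the 50th percentile in 9 rats, 134 with first arrays, 11 with all arrays, 106 with array weights, 2 with scan class as a block, 78 without high-background arrays, 20 with the deposited values, 4 without the large spots rats and 0 without the 3 rats. Against olive oil the main count of 4 became 2 with the stricter filter and 0 with median scaling, first arrays, scan class as a block, the deposited values, without the large spots rats and without the 3 rats. With 1 rat left out at a time the counts ran from 6 to 75 against both oils, from 2 to 87 against corn oil and from 0 to 6 against olive oil. Against both oils, calls were fewest without rats 234 (6), 201 (8) and 236 (12) and most without rats 233 (75), 202 (62) and 205 (52). Against corn oil it was 2 without rat 234, 12 without 132, 16 without 105, 17 without 136 or 236, 21 without 201 and 87 without 203. Against olive oil it was 0 without any 1 of rats 206, 232, 301, 302 and 305. The change of the fish oil difference between the times had 0 calls under every alternative run for it. Apart from fewer rats or probes in some fits, the cause of these changes was not tested. The deposited values covered only 5201 probes, without Fabp4, Aqp8, Efnb1, Arfip1 and Brd2. A background offset of 16, no background correction, cyclic loess, no floor, trend and robust moderation, and fish oil against the rest as 2 levels gave 27 to 31 calls against both oils. Leaving out high-background arrays gave 42. No paired analysis was possible because the repeat numbers in the sample titles mark arrays of the same rat and pair no rats across diets. Dim probes are limited by the lowest measurable level of 6.46. Of the genes past the threshold Efnb1, Fabp4 and Nr5a2 reached it on some arrays, and of the other named genes Socs2 and Cpt1b did.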

Other observations

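No gene of the stress, detoxification, cell death and clock lists passed. In the immediate early and heat shock list 8 of 10 tested genes stood below 0, the median was -0.08 and 0 passed. Its chaperone genes Hspd1 and Hspa8 stood at -0.43 (adjusted p = 0.0845) and -0.40 (adjusted p = 0.216), with Hspd1 at -0.14 in the 12 h rats and -0.78 in the 10 wk rats. Junb, a subunit of the transcription factor AP-1, stood at -0.30 (adjusted p = 0.114). Of 12 xenobiotic metabolism genes 0 passed, 7 stood above 0 and the median was 0.03. With an unadjusted p under 0.05, 2 stood higher, the drug oxidation gene Cyp3a18 at 0.25 (adjusted p = 0.271) and the export pump gene Abcc3 at 0.13, and 2 lower. Of these the sulfotransferase gene Sult1a1 stood at -0.34 (adjusted p = 0.386), and the glucuronosyltransferase gene Ugt2b1 stood at -0.81 (SE 0.30, adjusted p = 0.229), with -0.78 at 12 h and -0.85 at 10 wk. Of 11 apoptosis regulators 0 passed and 5 stood above 0, with a median of -0.02 and Bak1, a pore-forming effector, at -0.55 (adjusted p = 0.232). Of 5 tested circadian clock genes 0 passed, with the clock repressor gene Bhlhe40 at -0.38 (adjusted p = 0.101). Of 18 antioxidant and metal response genes 0 passed, with a median of -0.02.

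The lists of proliferation, damage and signalling had 0 calls each. Their medians were 0.03 for the cell cycle (12 genes), 0.02 for DNA repair (12), -0.05 for p53 targets (11), -0.06 for Wnt targets and crypt genes (8), 0.01 for growth factor and Ras signalling (15), -0.07 for retinoid handling (3), -0.01 for oxidative phosphorylation (18), 0.01 for the interferon response (16) and 0.02 for acute inflammation (11).

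Probes that passed against corn oil but not against both oils included 3 regulators of transcription, named after their values were seen. Klf5, a factor of proliferating crypt cells, stood at -0.52 against corn oil (adjusted p = 0.0483) and -0.31 against olive oil. Mxi1, which opposes Myc, stood at -0.62 (adjusted p = 0.0272) and -0.25. Id3, an inhibitor of basic helix-loop-helix factors, stood at -0.41 (adjusted p = 0.0483) on one probe and -0.35 (adjusted p = 0.142) on a brighter one.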
